A study of Caenorhabditis elegans with 4 samples.

Results

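The middle of chromosome III held 388 of the 5999 regions in the combined list of GEI-11 binding sites from fed first-stage (L1) larvae of Caenorhabditis elegans. Members were chosen by position alone: a combined region belonged when its centre lay from 4.6 to 9.2 Mb of chromosome III in the WormBase WS220 build. All were hermaphrodite larvae of strain OP179, unc-119(ed3) III, carrying the bombarded transgene wgIs179, which holds unc-119(+) and gei-11 fused to TY1, EGFP and 3xFLAG. The labels name no deletion of the strain's own gei-11, and whole larvae were fixed, so the tagged protein was mapped across all tissues at the same time. Chromatin from worms grown at 20 °C and fixed in 2% formaldehyde was collected with an antibody against GFP in 2 ChIP samples, replicates 1 and 2. Another 2 samples of the same strain and stage, also numbered 1 and 2, were inputs taken before the antibody. Whether the replicates were separate cultures is not stated in the labels, and their spread may be technical. Both the ChIP and the input samples carry the transgene, and no untagged strain was among the samples.

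GEI-11, also called SNPC-4, is the worm counterpart of a DNA-binding subunit of SNAPc, the complex that places RNA polymerase at small nuclear RNA genes. In worms it is also known for its part in the transcription of piRNA genes, most of which lie on chromosome IV. The centres of worm autosomes are gene-rich and recombine rarely, whereas the arms carry more repeats and more heterochromatin.

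The authors' lists give each region a start, an end and a q value, the false discovery rate assigned by the peak caller PeakSeq. Strength is given here as −log10 q, so a larger value means a stronger call, and each value is the region's own as the authors deposited it. Such values order the regions of 1 list, and between lists they are no measure of how much protein was bound. Read depth is unknown for every sample, and no list for the inputs was used. Which genes lie at each position is not analysed here, since the gene table at hand belongs to another build. Counting intervals are 95% exact intervals that cover counting error only, and neighbouring regions are not independent.

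With calls of all strengths counted, GEI-11 regions were dense in the centre of III. The 388 members amounted to 84.3 per Mb (exact Poisson interval 76.2 to 93.2) over 4.6 Mb, and they covered 137 kb, or 2.97% of that stretch. The left arm of III had 65 per Mb (57.8 to 72.8) and the right arm 76.3 (68.5 to 84.8). The rest of the series had 58.7 per Mb (57.2 to 60.3). Relative to both arms together, density in the centre was 1.19 times as high (1.05 to 1.36). In the replicate 1 list alone this ratio was 1.15 (0.961 to 1.37) and in replicate 2 it was 1.13 (0.963 to 1.33). Those replicate intervals include equal density, and the difference between centre and arms was not tested. The centre held 200 regions in replicate 1 and 241 in replicate 2, which are 6.62% and 6.48% of those lists, against 6.47% of the combined list.

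Members were spread unevenly within the centre. Windows of 100 kb held from 3 to 20 members, with a mean of 8.43 ± 3.74 (SD over 46 windows). Over the whole series the mean was 5.97 ± 3.45 (SD over 1005 windows). No window in the centre was empty, and 7 of the 46 (15.2%) held 12 or more members, compared with 67 of 1005 (6.67%) over the series. Divided into 5 equal stretches, the centre was densest from 5.52 to 6.44 Mb, where 101 members gave 109.8 per Mb (89.4 to 133). The sparsest stretch, 7.36 to 8.28 Mb, had 63 members, or 68.5 per Mb (52.6 to 87.6). Replicate 1 had 48 and 29 regions in these stretches, and replicate 2 had 56 and 40. The dense stretch had the smallest share of strong calls of the 5, and the lowest median −log10 q, 3.61. A q of 1e-10 or less was reached by 13 of its 101 members (12.9%, 7.04 to 21.0). From 6.44 to 7.36 Mb it was 17 of 76 (22.4%, 13.6 to 33.4), and these intervals overlap.

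**Figure D1:**
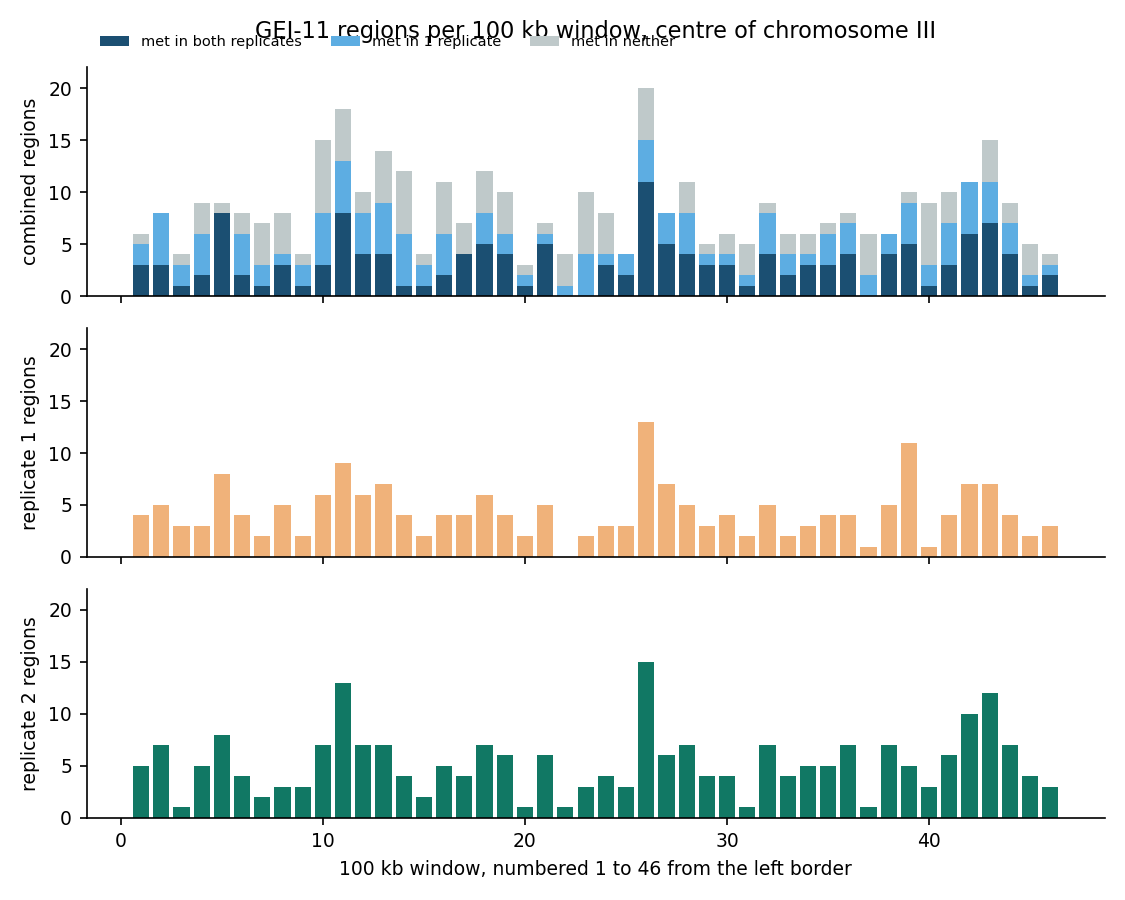
Number of regions per 100 kb window across the centre of chromosome III, numbered 1 to 46 from the left border, in the combined list (top, coloured by the replicate lists a member meets), replicate 1 (middle) and replicate 2 (bottom). Window 26 is the highest in all 3 lists, with 20 combined, 13 replicate 1 and 15 replicate 2 regions.

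Windows rich in members were mostly the same in the replicates. Across the 46 windows the replicate counts gave r = 0.818 (Pearson) and rho = 0.849 (Spearman), a description, since both lists come from the same stretch of genome. The window from 7100001 to 7200000 held 20 members, 11 of them met in both replicates and 7 with a q of 1e-10 or less. The next, from 5600001, held 18, with 9 replicate 1 and 13 replicate 2 regions. A window from 5500001 held 15, of which 7 met neither replicate, and that from 8800001 also held 15, of which 4 met neither. At the other end, the window from 6500001 held 3 members, and those from 4800001 and from 5400001 held 4 each. The last 2 were named by position among tied windows, since 7 of the 46 windows held 4 or fewer. Another of those tied, from 6700001, had 0 replicate 1 regions and 1 replicate 2 region. The window from 8400001, chosen after its values were seen, went against the general order, with 11 regions in replicate 1 and 5 in replicate 2. Part of that count is splitting: the members at 8443377 and 8445543 there each met 2 replicate 1 regions and 1 replicate 2 region.

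Most members were called again in at least 1 replicate. A member was counted as met when it shared at least 1 bp with a replicate region. By this measure 147 of 388 members (37.9%, 33.0 to 42.9) met a region in both replicates, beside a background of 38.8% over the whole combined list. Replicate 1 alone was met by 43 (11.1%, 8.14 to 14.6), where the background was 8.15%, and replicate 2 alone by 79 (20.4%, 16.5 to 24.7), where it was 19.9%. The remaining 119 (30.7%, 26.1 to 35.5) met neither, against a background of 33.2%. Each of these 4 intervals included its background, though for replicate 1 only it did so narrowly, and the background contains the members. Over the rest of the series the share met in replicate 1 only was 7.95%, below that interval, a difference that was not tested. The 147 members met in both made up 55.0% of the bases covered by members. The combined list is named as made from the replicates, so a match is no independent evidence of a site.

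Repeat calling followed strength closely, a link partly built in if the combined list was made from the replicates, as its name says. Ordered by combined q value, the first 68 members were each met in both replicates, the first met in neither came at place 192, and the last met in both at place 210. Of the strongest 50, all were met in both, as were 46 of the next 50, 35 of the third 50 and 15 of those at places 151 to 200. At places 301 to 350, 39 of 50 met neither, as did 33 of the last 38. At matched strength the members' intervals included the share found elsewhere. For −log10 q from 5 to 10, 69 of 93 members (74.2%, 64.1 to 82.7) were met in both, compared with 71.1% (68.6 to 73.6) of 1305 regions elsewhere. Between 3 and 5 it was 11 of 99 (11.1%, 5.68 to 19), compared with 10.3% (8.73 to 12) elsewhere. Below 3 it was 0 of 129, which allows a share of up to 2.82%.

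**Figure D2:**
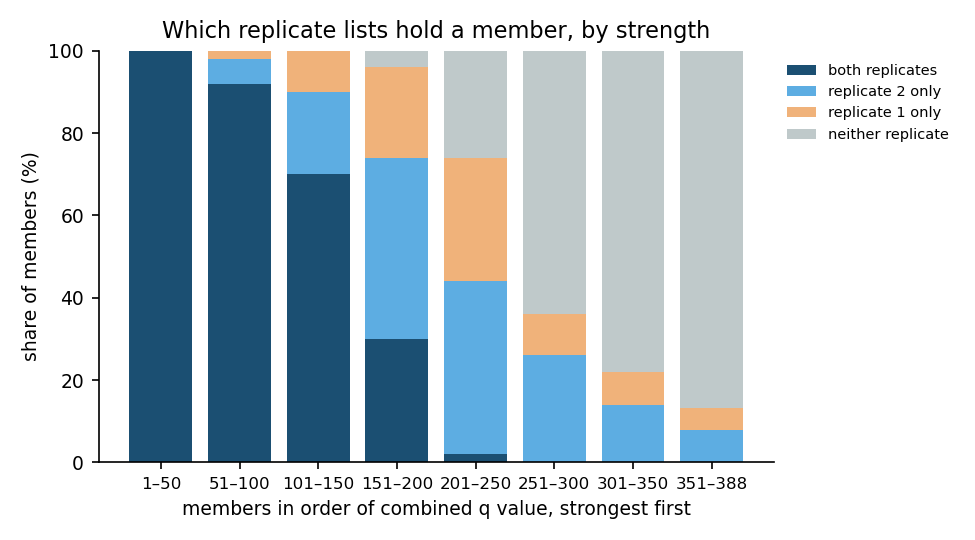
Share of members (vertical axis, percent) met in both replicates, in replicate 2 only, in replicate 1 only or in neither, for members in order of combined q value in groups of 50 (the last group has 38). The share met in both is 100% among members 1 to 50 and 0% after place 250.

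The strongest member ranked second in the whole combined list. It lay at 5080419 to 5081496, was 1078 bp wide, and reached a −log10 q of 266 combined, 188 in replicate 1 and 212 in replicate 2. It ranked 10 and 9 in the replicate lists. The member at 7278330 to 7278835 followed, at 153 combined, 90.0 in replicate 1 and 127 in replicate 2. The third, at 5653737 to 5654179, had 125, 69.7 and 94.1 in the same order. After these the values dropped steeply: the member at place 10, 8443377 to 8445221, had 35.7 combined, 16.1 in replicate 1 and 15.3 in replicate 2. The fifteenth, at 5018051 to 5018505, had 29.8, 16.8 and 14.9. So a few sites stood far above the rest, and the median member had a −log10 q of 4.02 (exact binomial interval of the median 3.61 to 4.53).

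The 15 strongest members met in both replicates had a median width of 526 bp, against 401 bp over all members met in both. Their widths ran from 383 to 4021 bp, and 5 of the 15 were 600 bp or wider. Replicate 1 values ran from 15.6 to 188 and replicate 2 values from 13.7 to 212, with replicate 2 higher in 11 of the 15. The 4 with a higher value in replicate 1 were those at 9050876, 8443377, 4899384 and 5018051, with differences (replicate 2 minus replicate 1) of −4.44, −0.794, −3.04 and −1.96. Each of the 8 strongest apart from the one at 9050876 had a replicate 2 value at least 18.8 above its replicate 1 value.  These sites were picked by combined q value among members met in both, so high values in each replicate follow in part from that choice. The size of the value differed between the replicates.

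Members 4, 5 and 6 stood side by side. They lay at 7140207 to 7140761, 7141029 to 7141554 and 7141949 to 7142474, within a stretch of 2268 bp. Their widths were alike, 555, 526 and 526 bp, and their starts were 822 and 920 bp apart. Their combined −log10 q values were 96.4, 96.2 and 93.7. Replicate 1 gave 47.9, 46.1 and 44.0, and replicate 2 gave 75.7, 70.7 and 64.1. Each member met exactly 1 region in each replicate, so both replicates resolved the 3 sites separately, and in each list the values fell in the order left, middle, right. The gaps between them were 267 and 394 bp. In the other 5 groups of 3 members with gaps of at most 500 bp, the weakest member had a −log10 q between 2.01 and 2.72. The group was described after its values were seen. What sequence or gene repeats there, if any, is not analysed here.

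Another group of strong sites, at 5637266 to 5637648 and 5653737 to 5654179, shared the window from 5600001. The left one, at 5637266, had a −log10 q of 66.8 combined, 31.0 in replicate 1 and 49.9 in replicate 2. Within the same window the member at 5678917 to 5679323 had 31.9, 16.5 and 17.5. These 3 sites were between 383 and 443 bp wide, and the gaps to the nearest member were 2216, 6010 and 8829 bp. Unlike members 4, 5 and 6, none of them had a neighbour within 500 bp.

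Over the 147 members met in both replicates, the median −log10 q was 4.40 (3.81 to 4.92) in replicate 1 and 4.85 (4.04 to 5.39) in replicate 2. Pearson's r between the replicates was 0.982 and Spearman's rho 0.702, a description over sites that share 1 pair of libraries. Replicate 2 was higher in 94 of the 147 (63.9%, 55.6 to 71.7), beside a background of 71.2%. The median difference, replicate 2 minus replicate 1, was 0.43 (0.18 to 1.04), against 1.05 (0.933 to 1.19) in the rest of the series, a difference between the places that was not tested. It was 0.741 when regions were matched by centres within 200 bp and 0.823 with borders at 5 and 8.8 Mb. Among the 67 with a combined −log10 q of 10 or more, the median difference was 2.52 (0.970 to 3.57). Among the 80 weaker ones it was 0.144 (−0.138 to 0.396), and rho there was 0.032, over values held in a narrow range. For the 67 stronger ones rho was 0.648.

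**Figure D3:**
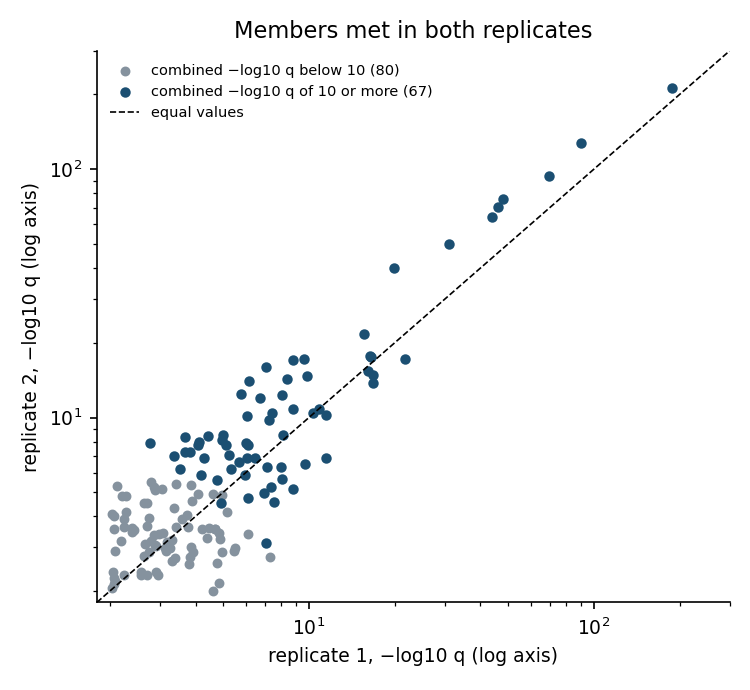
Strength of the 147 members met in both replicates, as −log10 q in replicate 1 (horizontal, log axis) and replicate 2 (vertical, log axis), with the dashed line marking equal values. Weak members, below 10 in the combined list, form a cloud with no order within a narrow range of values, which this cut itself limits. The strong ones run along the line, mostly above it.

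The combined list gave each of these sites a stronger call than either replicate did. All 147 had a combined −log10 q above both replicate values, where the background was 99.7%. The combined value was typically 1.68 times that of the stronger replicate (median). Positions were close: the centres of the replicate regions were a median of 28 bp apart, 125 of 147 pairs of centres (85.0%, background 87.4%) lay within 100 bp, and the furthest were 456 bp apart. Median width was 401 bp in the combined list, 335 bp in replicate 1 and 336 bp in replicate 2. The combined region was wider than both replicate regions in 118 of the 147 (80.3%, background 85.9%). The way the lists were combined is not stated in the labels or headers.

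The next members are the 5 met in both replicates whose values differed most as a ratio. At 7642566 to 7642828 the value was 2.76 in replicate 1 and 7.89 in replicate 2, a ratio of 2.86. Its replicate 1 region was 104 bp wide and its replicate 2 region 283 bp. The opposite held at 4795989 to 4796411, with 7.31 in replicate 1 and 2.73 in replicate 2. Members at 7336171, 8971593 and 8767829 had ratios of replicate 2 to replicate 1 of 2.50, 0.437 and 2.28. Combined values of these 5 ran between 6.52 and 11.7, at places 56 to 116 by strength. Stronger sites came close: at 4756944, place 26, chosen after its values were seen, the value was 6.15 in replicate 1 and 14 in replicate 2, a ratio of 2.28.

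Members met in 1 replicate only were weaker. The 43 met in replicate 1 only had a median combined −log10 q of 3.62 (3.35 to 4.0) and reached 8.85 at most, at 8683681 to 8684593, where replicate 1 had 4.54. The next were at 5841567 to 5842151, with 6.88 combined and 3.66 in replicate 1, and at 5108733 to 5109071, with 6.24 and 5.26. The 79 met in replicate 2 only had a median of 3.74 (3.44 to 4.12). The strongest of them, at 7815982 to 7816739, had a −log10 q of 17.5 in replicate 2 and 9.67 in the combined list, and no replicate 1 region met it. Its neighbour at 7814518 to 7815152, across a gap of 829 bp, had 10.2 in replicate 2 and 8.18 combined, again with none in replicate 1. In these neighbours the replicate 2 call was stronger than the combined call, which held for 5 of the 79 members met in replicate 2 only (6.33%, background 6.88%). Among those met in replicate 1 only, the replicate call was the stronger one in 7 of 43 (16.3%, background 9.41%). The third, at 8700472 to 8700839, had 6.34 in replicate 2 and 8.03 combined.

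The 119 members met in neither replicate were weak and narrow. Their median −log10 q was 2.49 (2.42 to 2.62), and their median width was 202 bp (171 to 233). The strongest was at 7120509 to 7120785, at 4.08, followed by 8886281 to 8886567 at 3.98. Next came 5341218 to 5341221 and 7899799 to 7899803, both at 3.55, which were 4 and 5 bp wide. The fifth, 7720849 to 7721120, had 3.51. Of the 26 members narrower than 50 bp (6.70%, background 7.3%), 20 met neither replicate and 0 met both. The 26 covered 0.537 kb in all. How often narrow regions of the whole combined list met the replicates is not given here.

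Width rose with strength. Spearman's rho between width and −log10 q was 0.728 over the 388 members and 0.484 over the 147 met in both, compared with 0.679 over the rest of the series. The median width was 309.5 bp (297 to 327). A width of 600 bp or more was reached by 34 members (8.76%, 6.14 to 12, background 11.2%), of which 27 met both replicates and 0 met neither. They made up 24.6% of the bases covered by members and had a median −log10 q of 12.2. How often wide regions of the whole combined list met the replicates is not given here.

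The widest member, at 9050876 to 9054896, was also the widest region of the whole combined list, at 4021 bp. Its combined −log10 q was 68.2, seventh among the members. Neither replicate called it as 1 region. Replicate 1 held a region of 2231 bp with a −log10 q of 21.7 and another of 1064 bp with 8.04. Replicate 2 held regions of 1011, 455 and 1505 bp, with 17.3, 4.41 and 16.2. Its combined value stood far above that of any replicate part, and each list divided the stretch differently.

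The next widest members, at 8445543 to 8447471 (1929 bp) and 8443377 to 8445221 (1845 bp), were neighbours across a gap of 321 bp. The first had a −log10 q of 24.2 combined, 8.36 in replicate 1 and 14.3 in replicate 2. Replicate 1 divided each of them into 2 regions, and replicate 2 had 1 region in each. At 8801238 to 8802694 (1457 bp) the values were 28.2, 9.62 and 17.2. The fifth widest, at 6420236 to 6421663 (1428 bp), had 12, 7.34 and 5.26. Of the 5 widest, 4 lay at or beyond 8443377.

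**Figure D4:**
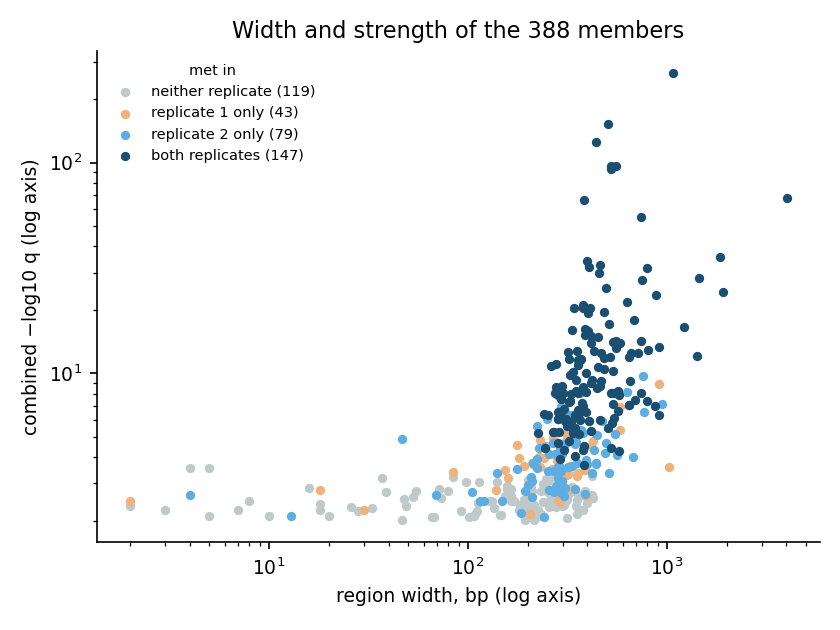
Width in bp (horizontal, log axis) against combined −log10 q (vertical, log axis) for the 388 members, coloured by the replicate lists they meet. Members met in both replicates are all 226 bp or wider, a range that members of the other classes also reach. Members narrower than 50 bp stay at a −log10 q of 4.85 or less.

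Gaps between neighbouring members had a median of 6.73 kb, with quartiles of 2.23 and 15 kb. On the arms of III the median gap was 7.87 kb and in the centre of V 9.09 kb. The shortest gap between members was 203 bp, and no gap in any of the 3 lists was below 200 bp, a limit of the lists themselves. A neighbour within 500 bp was present for 48 members (12.4%, 9.26 to 16.1, background 10.2%), in 27 gaps. These made 15 groups of 2 and 6 groups of 3. Members with a neighbour this close met both replicates in 24 of 48 cases (50.0%, 35.2 to 64.8), compared with 36.2% (31.1 to 41.5) of those farther apart. These intervals overlap, and the first includes the 38.8% met in both over the whole combined list. The difference was not tested, and no share for close neighbours over the whole list is given here.

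Close neighbours were often unequal. Of the 27 gaps, 9 joined a member met in both replicates to one met in neither, and 6 joined members that were each met in both. No share of such gaps over the whole combined list is given here. The closest were at 6279379 and 6279773, 203 bp apart, with combined −log10 q of 2.25 and 13.3. The pair at 7642073 and 7642566, 210 bp apart, had 2.72 and 10.8, and the pair at 8886888 and 8887155, 220 bp apart, had 2.01 and 12.8. In each of these 3 the weaker member was the left one and met neither replicate. The pair at 8794368 and 8795402, 240 bp apart, had 7.37 and 55.5, and both members met both replicates. None of the 27 gaps was bridged by a region of replicate 1 or replicate 2. For 17 of them this was fixed in advance, since at least 1 of the members met neither replicate.

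The longest stretch without a member ran from 6731490 to 6797953, 66.5 kb, and was followed by 63.2 kb from 8164162, 59.1 kb from 7387674, 57.6 kb from 7584471 and 57.4 kb from 6020063. No replicate region had its centre in any of these 5. The longest gap on the arms of III was 127 kb, and in the centre of V it was 198 kb. Gaps over 40 kb numbered 16 of 387 in the centre of III, 53 of 647 on its arms and 44 of 416 in the centre of V.

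Nearly all replicate regions of the centre were carried by the combined list. In replicate 1, 193 of 200 (96.5%, 92.9 to 98.6) met a combined region, where the background was 94.5%, and in replicate 2 it was 230 of 241 (95.4%, 92 to 97.7), where it was 95.6%. The 7 and 11 left over were weak. In replicate 1 the strongest were at 5369830, 5560495 and 7579012, with −log10 q of 2.84, 2.57 and 2.46. In replicate 2 they were at 4653374, 7925114 and 7144697, with 2.70, 2.64 and 2.53. None of the 18 met a region of the other replicate. The 2 lists met each other at 148 regions of replicate 1 (74.0%, background 77.6%) and 148 of replicate 2 (61.4%, background 63.0%). Comment lines in the lists name 5 regions altered or dropped when positions were carried over, and 0 of them lay in the centre of III.

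Strong calls were no more common in the centre of III than over the series. A q of 1e-10 or less was reached by 67 of 388 members (17.3%, 13.6 to 21.4), beside a background of 19.7%. The left arm of III had 15.4% (11.5 to 20.0), the right arm 24.6% (20.2 to 29.5) and the centre of V 23.3% (19.3 to 27.7). The right arm, of 4.57 Mb, held 86 such calls and 153 regions met in both replicates. That was more than the 67 and 147 in the 4.6 Mb centre, whereas the left arm, of 4.6 Mb, held 46 and 109. Members, which make up 6.47% of the combined list, numbered 8 among its first 100 regions, 28 among its first 500 and 59 among its first 1000. Median −log10 q was 4.02 (3.61 to 4.53) in the centre of III, 4.50 (4.12 to 4.82) on its arms and 4.25 (3.64 to 4.88) in the centre of V. Over all strengths together the numbers were high, the strengths were ordinary, and none of these differences was tested.

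**Figure D5:**
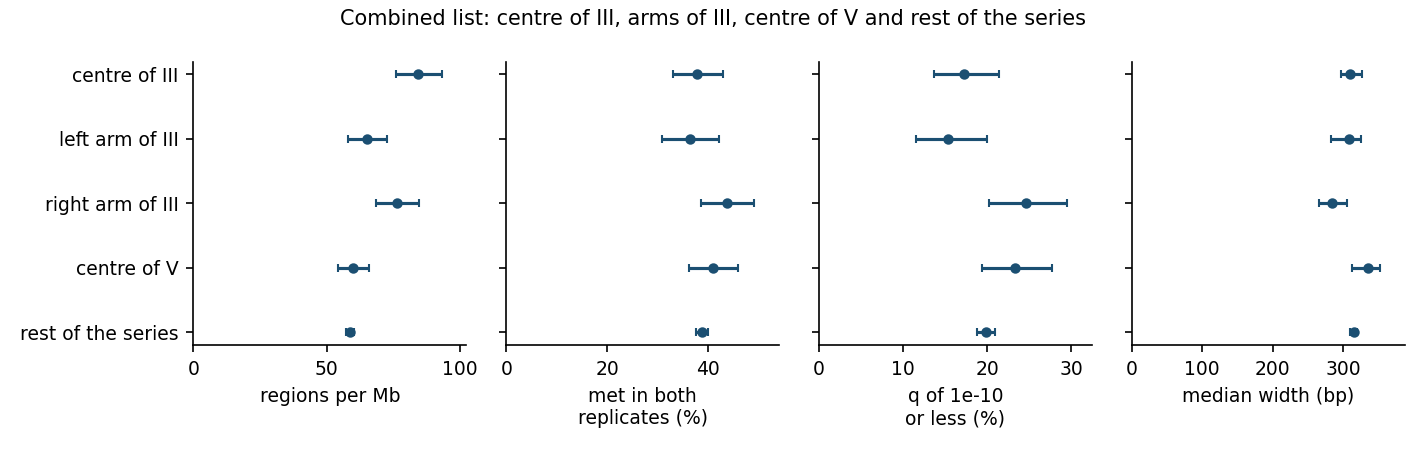
Regions per Mb, share met in both replicates, share with a q of 1e-10 or less and median width in the combined list, for the centre of III, its left and right arms, the centre of V and the rest of the series. Points are values and bars 95% exact intervals. With regions of all strengths counted together, the centre of III has the highest density, 84.3 per Mb, and its share met in both is 37.9%.

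Both borders fell in gaps between regions. The first region inside the left border, at 4612661 to 4612919, had a −log10 q of 2.51 and met neither replicate, and the nearest outside it, at 4587186 to 4587457, had 3.33. At the right border the last inside was at 9191043 to 9191534, with 4.17, and the nearest outside was at 9228165 to 9228456, with 4.75.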

How the data were processed

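ChIP-seq of GFP-tagged GEI-11 was represented by 3 region lists, 1 for each ChIP replicate and 1 combined. Regions were called with PeakSeq and given in WormBase WS220 positions carried over from an earlier build, per the file headers and comment lines. Each region has 1 deposited value, a q-value (1 per region, none above 0.01). Not given in the sources used here are the aligner, versions, filters, use of the inputs and way of combining replicates, and depth is unknown. No gene positions or sequences were used, since no WS220 genome or annotation was at hand.

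Members and named regions were chosen with earlier results of these data known. Named were the 15 strongest members met in both replicates and, for each other class, the first 3 to 5 by strength, width, spacing, window count or replicate ratio. Regions were matched by an overlap of at least 1 bp, and the strongest match gave a replicate's value. The centre of V was the middle one of 3 equal lengths. Shares carry Clopper-Pearson, densities Poisson and medians order-statistic 95% intervals. No hypothesis test was run. Matching and intervals were tested on simulated data. Computation used Python 3.11.15, pandas 2.3.3 and SciPy 1.17.1.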

Additional observations from a re-analysis of the deposited data

How the results depend on the processing

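No paired analysis was possible because no region list of an input was at hand to pair with its ChIP list, which leaves the differences between the ChIP replicates at each member. Of 44 alternatives, 33 stayed within the interval of the value reported, or within 1.5 times for a count, and 11 moved. Only the median replicate difference could change sign, as the other values are positive by construction, and it did not. With 1 replicate list alone, density ran from 43.5 to 52.4 members per Mb, the share with a neighbour within 500 bp from 6.22% to 7.5% and the fullest window from 13 to 15 regions. The stronger 50% of regions gave 40.4 per Mb, and merging regions within 1 kb gave 72.2. Restricting to members met in both replicates gave medians of 8.67 for −log10 q and 401 bp for width. Neighbours within 250 bp and within 1000 bp gave shares of 2.06% and 25%. Within its interval, the median replicate difference ran from 0.42 to 0.823. The ratio of centre to arm density ran from 1.09 (0.905 to 1.30), in the stronger 50%, to 1.30, in covered bases. The interval for the stronger 50%, like those for each replicate list alone, includes equal density. Fewer regions enter each replicate list, which lowers counts by construction; other causes were not tested. With depth unknown, its limit on weak regions was not measured.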
